A study of Homo sapiens with 16 samples.

Results

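The transcription factor NRF2 (gene NFE2L2) and its inhibitor KEAP1, together with NRF2 targets and other detoxification enzymes, make a set of 41 genes that was followed here across 8 established human lung cancer cell lines. Members were found as probe sets that the array's annotation pairs with 1 of these symbols and no other, of 19775 genes that have such a probe set. Of the 41 genes, 38 had 1 or more (75 probe sets in all), while AKR1B1, FTH1 and NR0B1 were not analysed here. The lines compared first were A549 and H460, and the others were A427, H23, H358, H661, H1437 and H1703. Each untreated line was grown in 3D, on a thin layer of Matrigel (a basement membrane extract) under medium with 2% Matrigel, and in 2D, on tissue culture plastic. One RNA sample of every line in either culture was hybridised to an array of its own, which makes 16 arrays. A549 and H460 are known to carry loss-of-function mutations of KEAP1. The labels state no genotype, and the KEAP1 status of the other 6 lines is not given in the sources used here. With 2 lines, KEAP1 status cannot be told apart from anything else that A549 and H460 share.

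KEAP1 is the adaptor through which a CUL3 ubiquitin ligase marks NRF2 for degradation. When oxidants or electrophiles modify KEAP1, or when it is lost, NRF2 accumulates, pairs with small MAF proteins and binds antioxidant response elements. Its targets make and recycle glutathione and thioredoxin, supply NADPH, reduce quinones and carbonyls, conjugate xenobiotics and export the products. In lung cancer, mutation of KEAP1 or NFE2L2 is a well known route to constant activity of this programme.

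The core of the antioxidant response element was searched as TGACNNNGC, on both strands, in RefSeq promoter windows of the GRCh38.p14 assembly that run from 250 bases before to 50 bases after a start site. Of the 41 genes, 30 had a window, and 12 of these 30 held the core, against 16.1% of 27305 genes with a window. The related AP-1 motif TGACTCA was found in 3 of the members and in 6.05% of all genes, and in ME1 and PIR it overlapped a match of the core. A match is a string of letters and not a measured binding site. The windows of 4 members are printed with matches of the core in capitals: KEAP1, the regulator that sets H1437 apart below, GCLM and ME1, high in A549, H460 and H1437, and GPX2, high in A549 and H1437 alone.
KEAP1 (chr19:10502722-10503021, minus strand): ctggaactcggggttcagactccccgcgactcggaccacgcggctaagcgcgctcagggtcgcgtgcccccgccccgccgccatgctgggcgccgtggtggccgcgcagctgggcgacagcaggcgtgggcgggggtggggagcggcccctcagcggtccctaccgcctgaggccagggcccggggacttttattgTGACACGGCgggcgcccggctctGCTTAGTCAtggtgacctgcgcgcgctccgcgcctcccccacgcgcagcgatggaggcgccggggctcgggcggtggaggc
GCLM (chr1:93909381-93909680, minus strand): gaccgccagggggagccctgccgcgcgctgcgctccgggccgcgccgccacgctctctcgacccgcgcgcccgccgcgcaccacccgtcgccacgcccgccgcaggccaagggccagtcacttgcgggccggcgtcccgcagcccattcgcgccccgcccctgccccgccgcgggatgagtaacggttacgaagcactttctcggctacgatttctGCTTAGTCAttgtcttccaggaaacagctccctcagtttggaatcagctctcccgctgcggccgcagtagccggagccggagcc
GPX2 (chr14:64942696-64942995, minus strand): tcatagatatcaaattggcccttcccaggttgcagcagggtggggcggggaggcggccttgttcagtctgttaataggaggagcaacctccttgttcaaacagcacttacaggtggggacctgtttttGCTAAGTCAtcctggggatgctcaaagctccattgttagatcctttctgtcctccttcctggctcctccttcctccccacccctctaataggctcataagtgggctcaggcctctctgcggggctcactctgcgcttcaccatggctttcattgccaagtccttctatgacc
ME1 (chr6:83431002-83431301, minus strand): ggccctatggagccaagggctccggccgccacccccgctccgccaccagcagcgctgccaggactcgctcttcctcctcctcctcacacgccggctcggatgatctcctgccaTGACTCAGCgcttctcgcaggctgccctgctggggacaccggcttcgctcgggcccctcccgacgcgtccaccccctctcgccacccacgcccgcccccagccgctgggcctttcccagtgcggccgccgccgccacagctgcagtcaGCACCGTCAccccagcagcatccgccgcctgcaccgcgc

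Values are log2 ratios of an array to the reference of its probe set, which for most probe sets is the median over the 16 arrays. Levels of different genes therefore cannot be compared, only the lines and cultures of 1 probe set. The lowest ratio in the data is 0.01 (log2 -6.64), so a value there is an upper bound. Array medians lay between -0.28 and -0.07. Of 6 epithelial markers, EPCAM was at -5.38 in A549 and -6.19 in H460, CDH1 at 0.97 and -4.47, KRT7 at 6.99 and 0.73, KRT19 at 2.53 and 7.57, and KRT8 and KRT18 between -0.39 and 0.28. All 6 were above 0 in H1437 and in H358, and H1703 was at -3.43 or lower in all 6. Of 4 measured leukocyte markers, CD3E, CD53 and PTPRC lay between -1.23 and 0.43 by their leads, but CD14 followed the members, at 1.94 in A549, 3.16 in H460 and 4.20 in H1437, against at most 1.40 (H23) in the others. Its part in the results was not tested. The 4 endothelial markers lay between -0.83 and 1.02, and of the fibroblast markers COL1A2 was at 10.82 in H661. Where a gene has several probe sets, a lead probe set was chosen by a rule that reads no difference between groups, and values below are of the lead unless another is named.

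Of the 38 measured members, 36 had a higher mean in A549 and H460 than in the other 6 lines, against 38.2% of all genes. The median difference was 1.46 log2 units, against a median of -0.04 over the lead probe sets of 19775 genes. A mean higher by 1 log2 unit or more was seen for 27 of 38 members and for 6.66% of all genes, and a mean lower by as much for 0 members and for 6.29% of all genes. The 27 include KEAP1 (1.42), which differs by 0.32 without H1437, and GPX2, for which A549 is high and H460 is not. No member probe set passed the test of this difference: 0 of 75 were called higher or lower by limma at a Benjamini-Hochberg adjusted p under 0.05, where 0.0535% of all 41097 probe sets were called higher and 0.0073% lower. At an unadjusted p under 0.05, 10 of 75 member probe sets (9 genes) were higher, against 2.7% of all probe sets, and 0 were lower, against 2.75%. A549 and H460 both lay above all 6 other lines for 6 of 38 members, against 2.92% of all genes, and both lay below all 6 for 0 members, against 4.34%.

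Read line by line, H1437 ranked with A549 and H460. H460 was among the 3 highest lines for 34 of 38 members, A549 for 31 and H1437 for 30, where each of these lines holds such a place for 28.4%, 27.3% and 33.3% of all genes. H1703 held one for 9 members and for 59.0% of all genes, A427 for 3 and 49.7%, H23 for 3 and 46.8%, H358 for 2 and 26.3%, and H661 for 2 and 29.0%. The median over members of a line's deviation from the 8-line median was 1.14 in A549, 1.30 in H460 and 1.57 in H1437, against 0.03 in H1703, -0.37 in A427, -0.58 in H23, -0.62 in H358 and -0.97 in H661. H1437 was the highest line for 15 members. These ranks are a description of the lines.

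**Figure D1:**
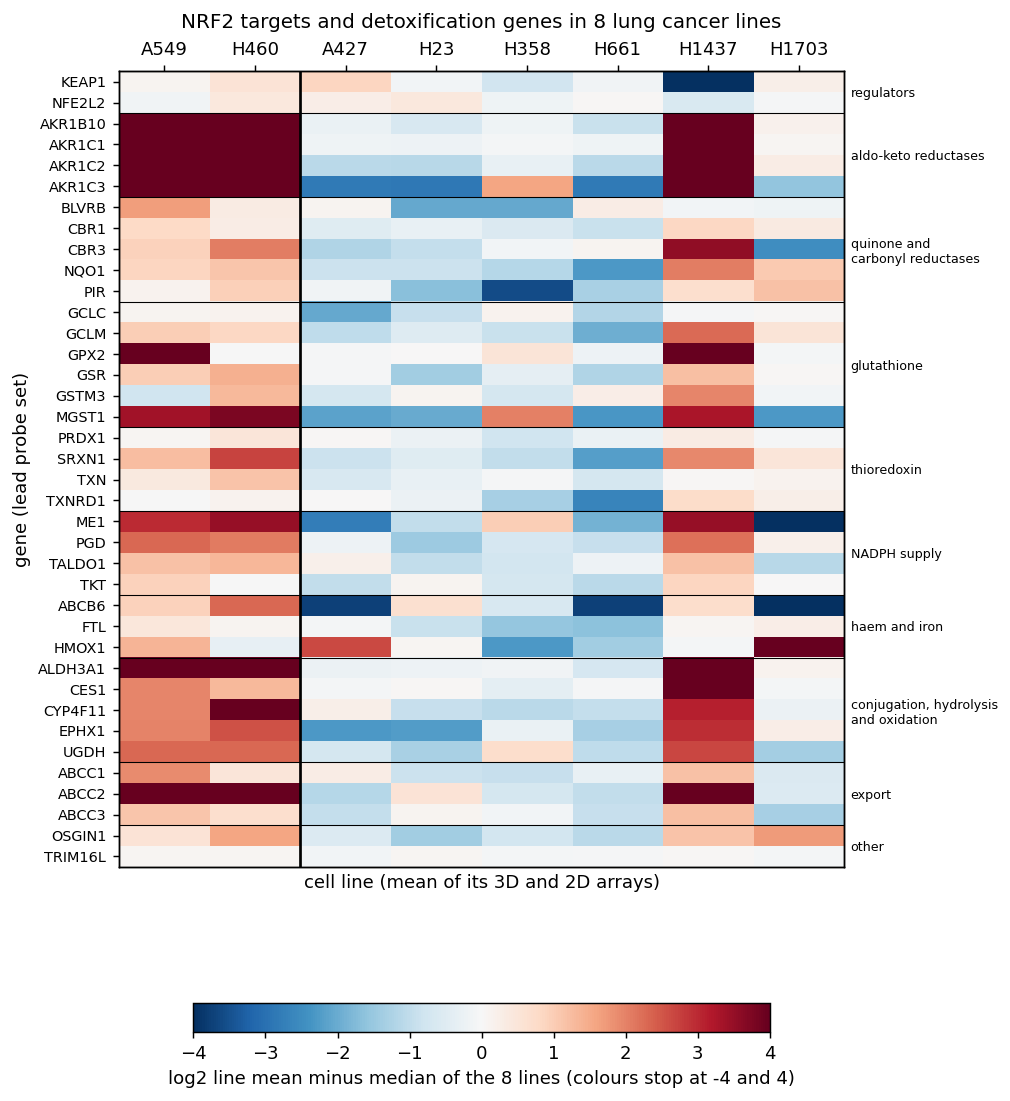
Heat map of the 38 lead probe sets (rows, by role) in the 8 lines (columns), each cell the line's mean of its 3D and 2D log2 ratios minus the median of the 8 lines, with colours stopping at -4 and 4. Most rows are red in A549, H460 and H1437, KEAP1 is blue in H1437, and HMOX1 is red in A427 and H1703.

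**Figure D2:**
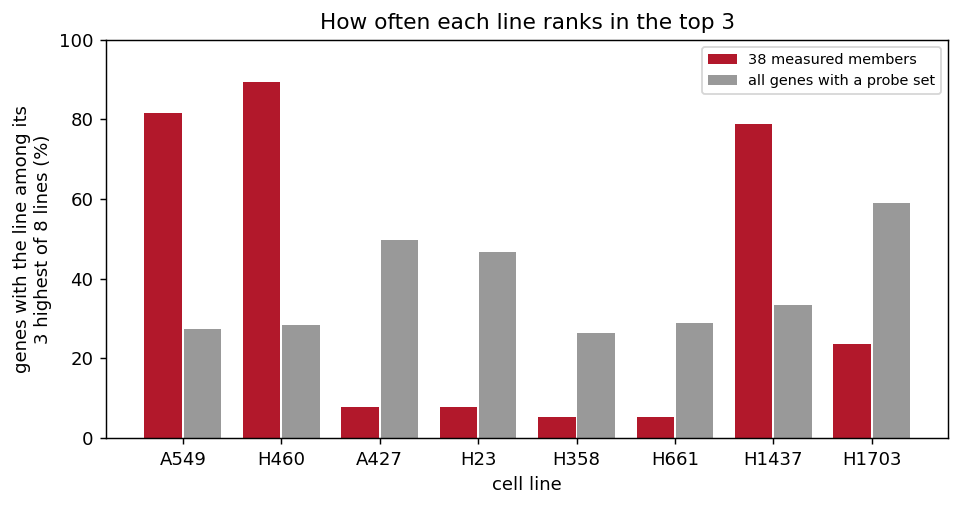
Percentage of genes for which each line is among the 3 highest of 8, for the 38 measured members (red) and for 19775 genes (grey). A549, H460 and H1437 exceed 75% of members, and no other line exceeds 25%.

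Each line was also left out in turn. With H1437 left out, A549 and H460 both lay above the other 5 lines for 24 of 38 members, against 4.74% of all genes, and both lay below for 0, against 6.65%. The median difference was then 1.78 log2 units. H1437 is the line that stands high in these same members, so the values without it describe the other 5 lines and are no independent test. By limma, 46 of 75 member probe sets (26 genes) were higher at an unadjusted p under 0.05, against 3.47% of all probe sets, and 0 were lower, against 3.64%. Leaving out any other single line gave between 5 and 10 such probe sets of the members. After adjustment and without H1437, 0 were called, against 0.0462% called higher and 0.017% lower. Of 18 alternatives of this comparison, 1 gave calls among the members. It left out H1437 and also dropped the variance trend of limma, was chosen after seeing the data, and called 8 of 75 member probe sets higher (ABCC2, AKR1B10, AKR1C1, AKR1C2 and ALDH3A1), against 0.161% of all probe sets, and 0 lower, against 0.0365%.

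The regulators themselves set H1437 apart. KEAP1 was at -0.12 in 3D and 0.23 in 2D in A549, and at 0.48 and 0.53 in H460. In H1437 it was at -6.64 in both arrays, the lowest ratio in the data, and in the arrays of the 5 remaining lines it ranged from -1.11 to 0.92 with a median of -0.00. H1437 thus lay -6.70 log2 units from the median of the other 7 lines, a bound set by the lowest ratio. Of 41097 probe sets, 15 were at the lowest ratio in both H1437 arrays, and between 4 and 28 in the other lines. One probe set measures KEAP1 here, so a missing transcript and a sequence that its probes do not match cannot be told apart. NFE2L2 was at -0.15 and -0.40 in A549, 0.33 and 0.29 in H460, -0.74 and -0.73 in H1437, and between -0.62 and 0.32 in the other 5 lines. By this lead A549 lay inside the range of the other lines and H1437 was lowest. H460 in 3D (0.33) lay just above their highest array (0.32, H23 in 3D). The order was not kept by another probe set at its reference, where A549 was lowest (-0.32), H1437 was next (-0.29) and H460 was at 0.41.

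**Figure D3:**
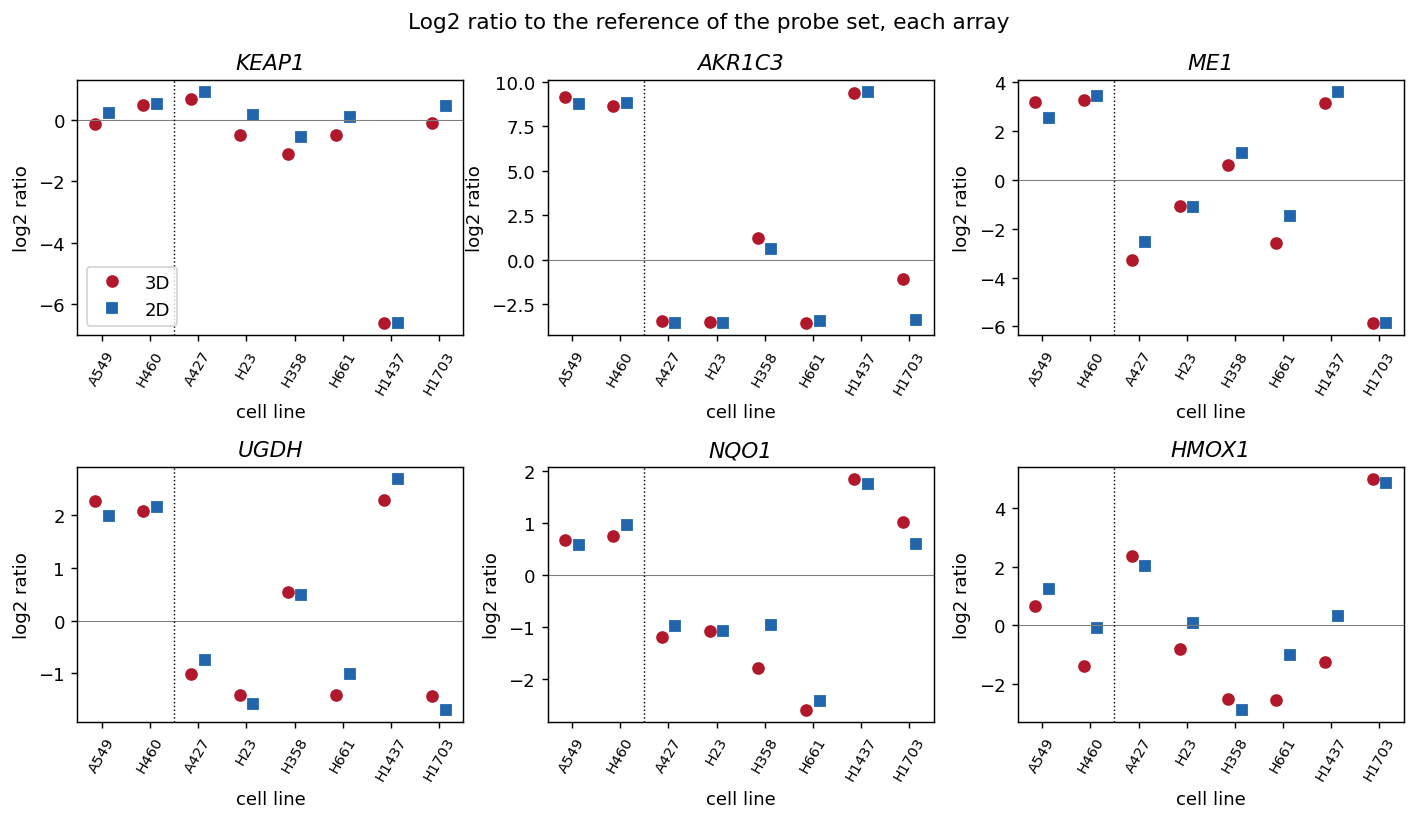
Log2 ratio of 6 members in every array, with 3D as red circles and 2D as blue squares, A549 and H460 left of the dotted line. AKR1C3, ME1 and UGDH are high in A549, H460 and H1437, KEAP1 is at -6.64 in H1437, NQO1 is also high in H1703, and HMOX1 peaks in H1703.

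The aldo-keto reductases, which reduce aldehydes, ketones and steroids, had the widest range. AKR1B10, which reduces retinal and reactive aldehydes, was at 11.67 and 11.23 in A549 and 11.39 and 11.56 in H460 (3D, then 2D, here and below), against -0.87 to 1.14 in the 5 lines without H1437 (median -0.39). It was 11.30 and 11.63 in H1437, inside the range of A549 and H460. AKR1C3, a prostaglandin and steroid reductase, was at 9.12 and 8.72 in A549, 8.62 and 8.79 in H460, 9.36 and 9.42 in H1437, and between -3.57 and 1.20 in the other 5 lines. H358 was the only one of those 5 with both arrays above -1 (1.20 and 0.61). A549 and H460 exceeded the other 6 lines in AKR1C3 by 9.22 ± 3.68 log2 units (SE, 2 lines against 6, limma adjusted p = 0.89), and the 5 without H1437 by 11.18. AKR1C1 and AKR1C2 are near-identical paralogs. Of their probe sets, 4 carry the suffix _x_at and 1 carries _s_at, which mark probes shared with other transcripts. Their values are therefore uncertain as measures of 1 gene. AKR1C2 was at 9.92 and 9.80 in A549, 9.56 and 9.68 in H460, 10.81 and 10.68 in H1437, and at most 0.60 elsewhere. The only AKR1C2 probe set without such a suffix has a median under its reference. Line means there were 1.71 in A549, -0.43 in H460 and 5.36 in H1437, and -0.72 or lower elsewhere. AKR1C1 by its lead was at 6.26 and 5.27 in A549, 5.86 and 5.76 in H460, and 9.56 and 9.50 in H1437. Another of its probe sets had line means of 1.20 in A549, 0.14 in H460 and 6.53 in H1437.

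Quinone and carbonyl reductases showed smaller differences. NQO1, which reduces quinones by 2 electrons at once, was at 0.67 and 0.57 in A549, 0.76 and 0.97 in H460, 1.86 and 1.75 in H1437, and 1.03 and 0.61 in H1703. The other 4 lines lay between -2.60 and -0.97. By another NQO1 probe set, the line means of A549 (1.01) and H460 (0.94) lay above that of H1703 (0.73). By a further one, A549 (0.60) and H460 (0.66) lay below H1703 (0.73). CBR3, a carbonyl reductase, was at 1.18 and 0.78 in A549, 1.94 and 2.21 in H460 and 3.53 and 3.62 in H1437, against at most 0.38 in the others. CBR1, of the same family, had line means of 0.83 in A549, 0.34 in H460 and 0.86 in H1437, with H1703 at 0.40. PIR, an iron-binding nuclear protein, was at 0.08 in A549 and 0.89 in H460 and highest in H1703 (1.12), and BLVRB, a biliverdin reductase, stood out in A549 alone (1.75), with H460 at 0.39 next to H661 at 0.37.

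Among glutathione genes, GCLM, the modifier subunit of the enzyme that starts glutathione synthesis, was at 0.83 and 0.97 in A549, 0.32 and 1.17 in H460 and 1.92 and 2.50 in H1437. The other 5 lines lay between -2.76 and 0.62, with H1703 highest. GCLC, the catalytic subunit of the same enzyme, did not set A549 and H460 apart. A549 (0.21) and H460 (0.25) were next to H358 (0.25), H1703 (0.16) and H1437 (0.06). H23 (-0.81), H661 (-1.05) and A427 (-1.93) were lower. GSR, glutathione reductase, had line means of 0.79 in A549, 1.21 in H460 and 0.99 in H1437, and at most -0.17 in the rest. MGST1, a membrane-bound glutathione transferase, was at 2.83 and 3.17 in A549, 3.32 and 3.48 in H460, 2.94 and 2.87 in H1437 and 2.49 and 0.84 in H358, and at most -2.26 in the other 4 lines. Other probe sets of MGST1 reached the lowest ratio in both arrays of H661 and H1703. GPX2, a glutathione peroxidase of epithelia, did not follow the pair: it was at 9.77 and 5.18 in A549 and 8.55 and 9.80 in H1437, but at 0.04 and -0.12 in H460, inside the range of the other lines (-0.25 to 0.80). GSTM3, a glutathione transferase, was lowest in A549 (-0.78) while H460 was at 1.32 and H1437, the highest, at 1.96. Its other probe set spread the lines more widely, with A549 at -6.03 and its 2D array at the lowest ratio. There A427 and H358 were at -4.4, H460 at 1.04 and H1437 at 1.25.

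In the thioredoxin system, SRXN1, which repairs overoxidised peroxiredoxins, had line means of 1.13 in A549, 2.62 in H460 and 1.81 in H1437, with H1703 next at 0.39. TXN, thioredoxin itself, was highest in H460 (1.16) and A549 (0.43), with H1703 (0.18) and H1437 (0.08) after them. Its other probe set had H460 at 0.94 but A549 (0.19) below H1703 (0.24). TXNRD1, which reduces thioredoxin, was at 0.00 in A549 and 0.13 in H460, within the range of the other lines, of which H661 (-2.64) and H358 (-1.32) were low and H1437 (0.74) highest. PRDX1, a peroxiredoxin, spanned only -0.82 in H358 to 0.46 in H460.

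Of 4 NADPH suppliers, 3 were higher by their leads in both A549 and H460 than in the 5 lines without H1437. The exception was TKT by its lead, and the share of all genes is 4.74%. With H1437 among the others it was 0 of 4, against 2.92% of all genes. ME1, malic enzyme, was at 3.20 and 2.53 in A549, 3.26 and 3.45 in H460 and 3.13 and 3.60 in H1437, against -5.88 to 1.08 in the other 5 lines, with H1703 lowest and H358 highest. PGD, a dehydrogenase of the pentose phosphate pathway, had line means of 2.37, 2.18 and 2.28 in A549, H460 and H1437, and at most 0.29 elsewhere. TALDO1, transaldolase, was at 1.12, 1.28 and 1.14 in those 3 lines, and at most 0.17 elsewhere. TKT, transketolase, was at 0.92 in A549 and 0.86 in H1437 but -0.01 in H460 by its lead, below H23 (0.12) and H1703 (0.03). Its 2 other probe sets gave 0.35 and 0.40 in H460. By these, A549 and H460 both lay above the 5 lines without H1437 (at most 0.12 and 0.08).

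Of 3 measured haem and iron genes, ABCB6 alone was higher by its lead in both A549 and H460 than in the 5 lines without H1437. The share of all genes is 4.74%. With H1437 among the others it was again 1 of 3, against 2.92% of all genes. HMOX1, which degrades haem and is a textbook NRF2 target, was at 0.65 and 1.26 in A549 and -1.38 and -0.10 in H460, against 5.02 and 4.88 in H1703, 2.39 and 2.03 in A427 and -1.27 and 0.31 in H1437. H1703 and A427 were thus the highest lines, and H460 lay inside the range of the others. FTL, the ferritin light chain, had line means of 0.50 in A549 and 0.17 in H460, with H1703 (0.32) and H1437 (0.15) beside them. ABCB6, a porphyrin transporter, was at 1.02 in A549 and 2.39 in H460, followed by H1437 (0.79) and H23 (0.74), and was -3.63 or lower in A427, H661 and H1703.

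All 5 enzymes of conjugation, hydrolysis and oxidation were higher in both A549 and H460 than in the 5 lines without H1437. The share of all genes is 4.74%. With H1437 among the others it was 1 of 5, against 2.92% of all genes. ALDH3A1, an aldehyde dehydrogenase, was at 8.66 and 8.38 in A549, 5.90 and 6.55 in H460 and 3.94 and 4.41 in H1437, against -0.89 to 0.06 in the other 5 lines. Its difference from the other 6 lines was 6.98 ± 2.25 log2 units (SE, 2 lines against 6, limma adjusted p = 0.771). UGDH, which makes UDP-glucuronic acid for conjugation, had line means of 2.12 in A549, 2.11 in H460 and 2.49 in H1437, with H358 next at 0.51. EPHX1, microsomal epoxide hydrolase, was at 1.91, 2.49 and 2.88 in those 3 lines, and at most 0.20 elsewhere. CYP4F11, a fatty acid hydroxylase, was at 2.10 in A549, 6.08 in H460 and 3.28 in H1437, and at most 0.39 elsewhere. CES1, a carboxylesterase, was at 2.92 and 0.81 in A549 and 1.71 and 0.70 in H460, against 10.32 and 10.21 in H1437 and -0.53 to 0.04 in the remaining 5 lines.

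By their leads, all 3 exporters were higher in both A549 and H460 than in the 5 lines without H1437. The share of all genes is 4.74%. With H1437 among the others it was 1 of 3, against 2.92% of all genes. ABCC2, which exports conjugates into bile and urine, was at 8.10 and 8.58 in A549, 7.03 and 7.30 in H460 and 6.51 and 7.34 in H1437, against -1.38 to 0.74 in the other 5 lines. ABCC1, a broad conjugate exporter, had line means of 1.89 in A549, 0.48 in H460 and 1.19 in H1437, with A427 next at 0.31, while its other probe set had H460 at 0.30 below A427 at 0.49. ABCC3, a related exporter, was at 1.06, 0.63 and 1.18 by its lead, and another of its probe sets gave 4.48, 2.41 and 4.38 against at most -0.01 in the rest. A further one had H460 at 0.62 below H358 at 0.90. Of the other members, OSGIN1, an oxidative stress response gene, was at 0.45 in A549 and 1.48 in H460, with H1703 highest at 1.60. The 2 probe sets of TRIM16L disagreed: the lead spanned -0.07 to 0.13 and the other spanned -0.98 in H1437 to 1.18 in H460.

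Between cultures, differences were small for most members. The median 3D minus 2D difference over the 38 leads was -0.08, against 0.00 over 14113 genes. Of the members, 15 were above 0 and 23 below, where 50.5% of those 14113 genes were above 0. By limma with the line as a block, 0 of 67 member probe sets were called higher in 3D, against 2.96% of 27631, and 1 was called lower, against 5.22%. GSR by its lead fell by 0.65 ± 0.35 (SD over 8 lines, limma adjusted p = 0.0172), with 3D below 2D in 8 of 8 lines, a pattern of 1 of 67 member probe sets and 4.68% of all. The same sign upward in 8 of 8 lines was seen for 2 of 67, the leads of GCLC and TRIM16L, against 3.47% of all. The other TRIM16L probe set averaged -0.46, with 3D below 2D in 7 of 8 lines (limma adjusted p = 0.0992). For the lead of GSR, the 3D minus 2D differences were -0.86 in A549, -0.53 in H460, -0.37 in A427 and -0.34 in H23. They were -1.23 in H358, -1.07 in H661, -0.35 in H1437 and -0.46 in H1703. The other probe set of GSR averaged -0.17 and was not called (limma adjusted p = 0.251). The GSR call was also lost with A549 and H460 both left out, an alternative chosen after seeing the data (-0.64, limma adjusted p = 0.0876). With the 18S rRNA control level as a covariate it was lost too (-0.70, limma adjusted p = 0.305). That fit called 1 of all 27631 probe sets higher and 0 lower. That control was lower in 3D than in 2D in 8 of 8 lines, by -1.15 on average, and its part in the result was not tested beyond this fit.

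KEAP1 averaged -0.38 ± 0.26 (SD, 8 lines, limma adjusted p = 0.068), with 3D below 2D in the 7 lines that lie above the lowest ratio. Without H1437, where both arrays are at that bound, it was called lower (-0.43, limma adjusted p = 0.0345). GCLC averaged 0.30 ± 0.22, with 3D above 2D in 8 of 8 lines, and was not called (limma adjusted p = 0.062). Its other 2 probe sets averaged -0.03 (3D above 2D in 3 lines) and 0.06 (in 4 lines). GCLM averaged -0.50 ± 0.62, with 3D below 2D in 6 of 8 lines (limma adjusted p = 0.125). HMOX1 averaged -0.63 ± 0.83, with values between -1.59 in H1437 and 0.39 in H358. NFE2L2 averaged 0.20 ± 0.22 and was not called (limma adjusted p = 0.182).

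**Figure D4:**
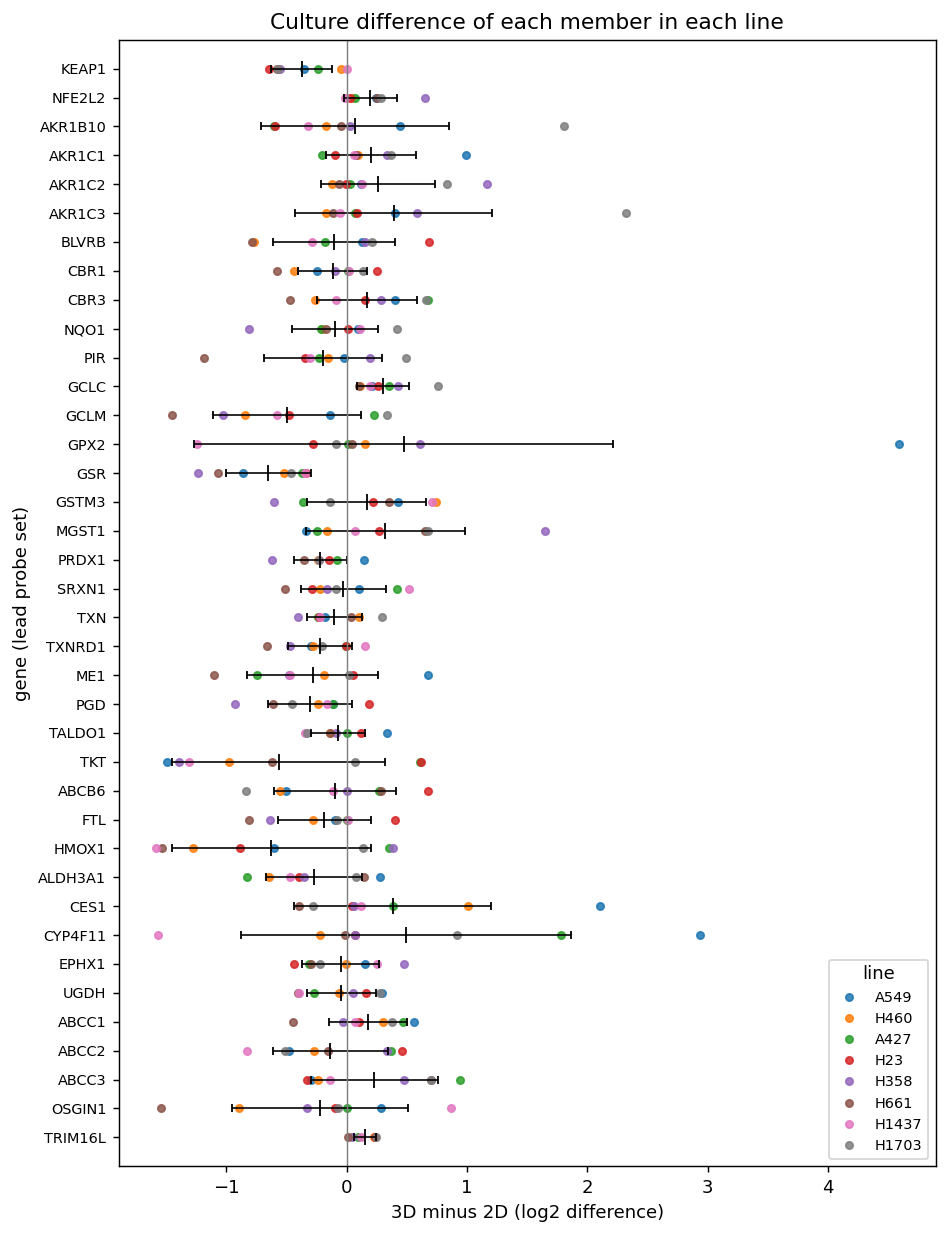
3D minus 2D log2 difference of the 38 lead probe sets, with 1 point per line and the mean ± SD over 8 lines in black. Points of GSR are all below 0 and those of GCLC all above 0, and GPX2 in A549 lies farthest right at 4.59.

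Whether culture acted differently in A549 and H460 than in the other 6 lines was tested on the 3D minus 2D differences. No member was called, as 0 of 27631 probe sets (0%) passed limma's adjusted threshold. At an unadjusted p under 0.05, 3 of 67 member probe sets were higher, against 2.61% of all, and 1 was lower, against 2.19%. CES1 had the smallest adjusted p among members: its 3D minus 2D difference was 2.11 in A549 and 1.01 in H460, against -0.40 to 0.39 in the other 6 lines (limma adjusted p = 0.716). GPX2 in A549 was at 9.77 in 3D and 5.18 in 2D, a difference of 4.59, where H460 gave 0.15 and H1437 -1.25. Without H460, leaving A549 as the only line of its side and assumed to vary like the others, GPX2 was called (4.75, limma adjusted p = 0.0251). CYP4F11 differed by 2.94 in A549 and 1.78 in A427, but by -0.22 in H460 and -1.57 in H1437. No line has a second array in the same culture, so the error of these single-line values is unknown.

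Other genes of the pathway were read from lists, whose counts stand beside the 2.96% of all probe sets called higher in 3D and the 5.22% called lower. A call belongs to a probe set, and several genes below have others that were not called. With the 18S covariate, 1 of 27631 probe sets was called higher and 0 lower. No lower call below, and at most 1 higher call, therefore holds in that fit. Of 12 listed NRF2 partners and regulators, 11 had a probe set. One of their 25 tested probe sets was called between cultures: BACH1, a repressor that competes for the same elements, rose by 0.77 ± 0.51 in 3D, in 8 of 8 lines (limma adjusted p = 0.0234). Of 27 tested probe sets of other NRF2 targets, 4 were called higher and 3 lower. The higher ones were 3 probe sets of RIT1, a small GTPase (0.73 to 1.03), whose lead averaged -0.14, and 1 of SLC6A6, the taurine transporter (0.68), whose lead averaged -0.01. The lower ones were TRIM16 by its lead (-0.86), 1 probe set of SLC7A11, the cystine transporter (-0.76, lead -0.30 and 4 of 8 lines lower), and 1 of SLC48A1, a haem transporter (-0.61, lead -0.46). Among other conjugation and oxidation enzymes, 2 of 50 probe sets were higher (GSTA4, 0.63, and NAT1, 0.52) and 2 lower. These were 1 of GSTO1 (-0.33, lead -0.31) and 1 of ARNT, the partner of the dioxin receptor (-0.97), of which the lead averaged 0.07 and another probe set 0.56, so ARNT has no single direction. Among other antioxidant enzymes, the lead of PRDX2 was higher (0.68), with its other 3 probe sets between -0.22 and 0.12. GLRX2 (-0.60), 1 probe set of TXN2 (-0.39, lead -0.11) and both of GSS, glutathione synthetase (-0.29 and -0.35), were lower, which makes 5 of 32 in all. Of 9 tested probe sets of other exporters, 1 was called lower, the lead of ABCC5 (-0.38), with its other 2 at -0.19 and -0.08. Between A549 and H460 and the other 6 lines, limma called 0 probe sets of these 5 lists.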

How the data were processed

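RNA from 8 lung cancer lines, each grown in 3D and 2D, was isolated by phenol and chloroform, and 200 ng of it was labelled with biotin for the Affymetrix U133 Plus 2.0 array, per the labels' protocols. The authors deposited 1 log2 ratio per array for each of 54675 probe sets. Judged by the values, 63.5% have their own median over 16 arrays as reference, and the others, called dim, a larger one. The sources used here name neither the software nor a normalisation step. The number of arrays limits the precision, and p-values measure the spread between lines, which are single cultures as far as the labels say.

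Genes came from the platform annotation: 41097 probe sets had 1 symbol, 1801 several and 11777 none. The members and lists were chosen with earlier results of these data known. The lead probe set of a gene was the first that is not dim, then by suffix (_at, _a_at, _s_at, _x_at), then by lowest identifier, and all members are named. Of other lists, called members with the smallest p are named. Tests used limma 3.58.1 in R 4.3.3 (lmFit, eBayes with a variance trend, Benjamini-Hochberg, threshold 0.05) and were tested on simulated data. There the line comparison recovered 24% of differences of 1 log2 unit, 32% of 2, 82% of 4 and 90% of 8. The culture comparison recovered 84% of differences of 1 log2 unit, and the difference of culture differences 28%. Many true differences between lines of 1 or 2 log2 units would thus go uncalled. Lines were compared on means of their 3D and 2D arrays over 41097 probe sets, without a filter, since a filter on the median removes genes high in few lines. Cultures were compared with the line as a block over the 27631 probe sets with a median at the reference (within 0.001), and the difference of culture differences over the same. Pairing rests on the cell line in the labels. Alternatives changed the arrays, filter, probe sets, centring, variance trend, block, 18S covariate and lines used.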

Additional observations from a re-analysis of the deposited data

Results flagged for a closer look

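Values that lay far from the rest of their group, by Dixon's ratio of gap to range, were looked for among the line means of the 6 lines other than A549 and H460 (38 genes) and among the 8 differences of 3D minus 2D (38 genes). The threshold nominally marks about 1 in 20 groups by chance. The share of all genes marked in the same way was not computed, so the counts below have no measured background. Among line means, 11 were marked, all of them H1437. KEAP1 was far below the other 5 lines at -6.64. AKR1B10 (11.46), AKR1C1 (9.53), AKR1C2 (10.75), AKR1C3 (9.39), GPX2 (9.18), GSTM3 (1.96), CES1 (10.26), ALDH3A1 (4.17), CYP4F11 (3.28) and ABCC2 (6.93) were far above them.

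Among culture differences, 4 were marked. NFE2L2 differed by 0.65 in H358. AKR1B10 and AKR1C3 differed by 1.81 and 2.32 in H1703. GPX2 differed by 4.59 in A549. Each rests on 1 array per culture.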

How the results depend on the processing

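Over 18 alternatives of the line comparison, 17 of the culture comparison and 14 of the difference between them, no called value of a member reversed. The main fits called GSR alone, in the culture comparison, so elsewhere they held no called member value that could reverse. Uncalled values changed sign for 5, 12 and 19 of 38 members in these comparisons, in that order. In the line comparison, 5 members were called higher when the variance trend was dropped and H1437 left out together, an alternative chosen after seeing the data, and 0 under the other 17, including each line left out in turn. Limma called between 0 and 373 of all probe sets higher there and between 0 and 24 lower, and the cause was not tested. In the culture comparison, members called lower were 0 with the 18S covariate, with the highest-mean probe set, with no line block and with A549 and H460 both left out (the last also chosen after seeing the data). They were 2 with no filter and with no variance trend, where KEAP1 joined GSR, and between 1 and 2 with 1 line left out, where KEAP1 joined without H1437 and TRIM16L by its second probe set without H1703. GSR was -0.70 with the 18S covariate, -0.17 by its highest-mean probe set and -0.65 with no line block. All probe sets called ranged from 0 to 884 higher and from 0 to 1556 lower. They were 43 and 41 with A549 and H460 both left out, and 1 and 0 with the 18S covariate. For the difference of culture differences, members called higher ranged from 0 to 1 with 1 line left out, the 1 being GPX2 without H460, where 31 probe sets were called higher and 3 lower. Of 41097 probe sets, 13466 are dim, and 8 of 75 member probe sets are among them.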

Other observations

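Outside the members, A549 and H460 both lay above the 5 lines without H1437 for the leads of 0 of 11 partners and regulators of NRF2, 3 of 10 other targets, 4 of 29 conjugation and oxidation enzymes, 5 of 18 antioxidant enzymes and 0 of 5 exporters, against 4.74% of all genes. They both lay below for 2 of the partners and regulators and 1 of the conjugation and oxidation enzymes, against 6.65%. The genes named next were chosen after their values were seen, in the order A549, H460 and H1437. TRIM16 was at 3.58, 3.63 and 2.89, with H358 next at 1.07. GLRX, glutaredoxin, was at 2.66, 4.31 and 3.36, with H358 next at 0.73. SLC7A11 was at 0.76, 1.85 and 1.08, with H1703 next at 0.05. CES2, a carboxylesterase, was at 1.30 in A549 and 1.69 in H460 but 0.24 in H1437. None was called by limma after adjustment.

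The genes beside KEAP1 in gene order were not at the lowest ratio in H1437. CDC37 had a line mean of -0.42 there, PDE4A 0.52, ATG4D 0.22 and S1PR5 -2.06, the last inside the range of the other lines (-2.28 to 2.33).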
